A study of Mus musculus with 12 samples.

Results

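The mouse microRNAs miR-465, miR-470 and miR-471 were followed across 6 groups of testis small RNA libraries. Their 10 rows were taken by name from the 1915 rows of the deposited miRNA table: mmu-miR-465a-5p and mmu-miR-465a-3p, mmu-miR-465b-5p and mmu-miR-465b-3p, mmu-miR-465c-5p and mmu-miR-465c-3p, mmu-miR-470-5p and mmu-miR-470-3p, and mmu-miR-471-5p and mmu-miR-471-3p. Total RNA of testis came from C57BL/6 males aged 4 months, and the libraries were restricted to small RNAs of 17 to 40 nt. The 6 groups were 10, 50 and 100 ng of RNA without oxidation and the same 3 inputs after oxidation with sodium periodate (NaIO4), with 2 technical replicates each. All 12 libraries used one protocol, labelled 10ng-seq, and received spike-in RNA in proportion to the input. How many mice gave the RNA is not known here, so p-values measure the spread between technical replicates. The series asks which small RNAs carry a methylated 3' end and how little RNA suffices to tell.

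A miRNA is cut from a hairpin precursor, whose 5' and 3' sides give the 5p and 3p arms, and the loaded arm guides Argonaute to messenger RNAs through its seed, bases 2 to 8. Members of the X-linked cluster studied here are known as testis-enriched miRNAs of germ cells, many of them made in spermatocytes. Periodate destroys an RNA 3' end with free 2' and 3' hydroxyls, as on most mammalian miRNAs, so that adapters cannot be joined to it, and it spares ends that bear a 2'-O-methyl group, as those of piRNAs do.

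The mature sequences show which rows can be told apart, and are given 5' to 3' with the seed in capitals (RefSeq, GRCm38.p6). All 10 names matched an entry.
miR-470-5p: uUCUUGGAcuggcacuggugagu
miR-470-3p: aACCAGUAccuuucugagaaga
miR-471-5p: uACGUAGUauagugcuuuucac
miR-471-3p: uGAAAGGUgccauacuauguau
miR-465a-5p: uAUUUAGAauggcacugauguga
miR-465b-5p: uAUUUAGAauggugcugaucug
miR-465c-5p: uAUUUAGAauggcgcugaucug
miR-465a-3p, also miR-465b-3p and miR-465c-3p: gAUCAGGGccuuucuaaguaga
The 3 miR-465 5p arms share 1 seed, which miR-465d-5p also carries, and the 3 3p arms are the same molecule. The 4 arms of miR-470 and miR-471 each have a seed that no other mouse entry of the table holds. Counted from 1 at the 5' end, miR-465b-5p differs from miR-465a-5p by C13U, A14G and G20C, and miR-465c-5p differs from it by A14G and G20C. A single substitution, U13C, separates miR-465b-5p from miR-465c-5p. The 5p arm of miR-465a has 23 nt, those of miR-465b and miR-465c have 22.

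With one sequence in common, the rows of miR-465a-3p, miR-465b-3p and miR-465c-3p held equal values in every library (largest difference 0 RPM). Their reads were whole in 4 of the 9 libraries that had any, within 0.01 of a read, and elsewhere held parts of a read that became whole when the 3 rows were summed. Reads of the other 7 members were whole in every library. The 10 rows therefore hold 8 distinct value profiles, and the reads of the 3p rows cannot be assigned to a copy. They are named the miR-465-3p rows here, and each holds an equal share of the common reads. The 5p copies differ by 1 to 3 bases, and no source used here says whether the alignment allowed mismatches, so the split between miR-465b-5p and miR-465c-5p is uncertain to that extent.

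The 7 hairpins that carry the members lie on the minus strand of chromosome X in GRCm38 (RefSeq positions), in a group of 19 hairpins spanning 62369 nt. Mir471 is at 66792595 to 66792661 and Mir470 at 66813951 to 66814025. Mir465c-1 starts at 66825955, Mir465b-1 at 66829202, Mir465c-2 at 66832517, Mir465b-2 at 66835764 and Mir465, the source of miR-465a, at 66839052. The starts of these 5 copies are 3247, 3315, 3247 and 3288 nt apart, so b and c copies alternate in a tandem array. None of the 7 overlaps another gene of GENCODE M21. The nearest protein-coding genes are Slitrk2, 115364 nt before the group, and Gm1140, 843775 nt after it. A pair of precursors, printed with both mature arms in capitals, show the arms whose balance is described below.
Mir465: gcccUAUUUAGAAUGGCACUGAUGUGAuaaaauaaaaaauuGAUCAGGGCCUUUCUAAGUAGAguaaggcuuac
Mir470: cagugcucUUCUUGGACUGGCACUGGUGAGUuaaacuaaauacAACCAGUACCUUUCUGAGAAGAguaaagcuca

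Abundances are deposited as RPM, reads scaled to a common library total. The value of 1 read gave library totals of 1924201 to 3347735 reads, of which 326701 to 454158 were assigned to miRNAs without oxidation and 625 to 937 with it. A count of 3 reads, the limit that a count of 0 allows, corresponded to 0.896 to 1.56 RPM in a single library, and all intervals here cover counting error only. Summed miRNA abundance before oxidation was 118184 ± 2105 RPM at 10 ng, 129358 ± 1743 at 50 ng and 137027 ± 2031 at 100 ng (SD, n = 2 each). The germ cell list (miR-34b-3p, miR-34c-5p, miR-449a-5p, miR-741-3p, miR-871-3p, miR-880-3p) was detected in full, with a summed level of 29106 to 39669 RPM before oxidation. That of the blood list (miR-451a, miR-486a-5p, miR-144-3p) was 0.179 to 4.72 RPM.

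Before oxidation miR-470-5p was by far the most abundant of the 10, and the miR-465 arms followed at similar levels to each other. Averaged over the 6 libraries, miR-470-5p was at 5860 ± 1539 RPM (SD, n = 6) and ranked 7 among the 1915 rows. It held 74.4% to 82.2% of the members' reads. Next came miR-465a-5p at 376 ± 41.6, miR-465c-5p at 334 ± 30.2 and miR-465b-5p at 289 ± 60.9 RPM, whose ranges over the libraries overlapped. Each miR-465-3p row was at 197 ± 45.6 RPM, and the 3 rows together held 590 ± 137 RPM against 999.8 ± 83.6 RPM for the 3 5p arms together. The arm miR-471-5p was at 30.2 ± 10.4 RPM and ranked 98. Its partner miR-471-3p was at 3.35 ± 1.18 RPM and miR-470-3p at 0.876 ± 0.922 RPM, near the value of a few reads. Reads were not corrected for length, and all arms have 22 or 23 nt.

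The arms of a hairpin were present very unequally in miR-470, with a larger minor share in miR-471 and the most even shares in miR-465. Of the reads of both miR-470 arms, 16 came from the 3p arm over the 6 libraries and 102843 from the 5p arm. The 3p share of miR-470 was 0% at 10 ng in both libraries (95% exact binomial upper bounds 0.0169% and 0.0171%) and 0.0536% and 0.0320% at 100 ng. Of miR-471 reads, 3.31% to 18.8% came from the 3p arm, from 4 to 15 reads per library. In miR-465 the 3p arm held 30.9% to 46.9% of the reads.

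**Figure D1:**
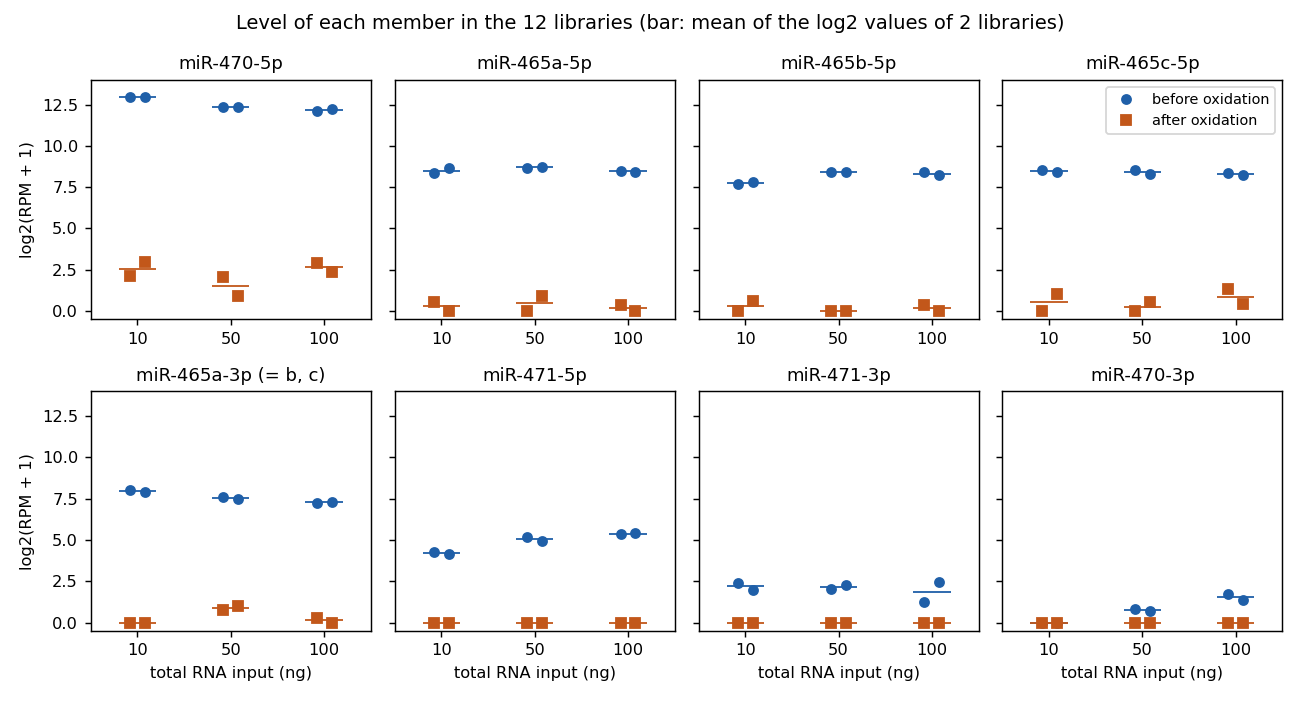
Level of each member on the log2(RPM + 1) scale (y axis) in the 12 libraries, by total RNA input in ng (x axis). Circles are libraries before oxidation, squares libraries after it, and bars the mean of the log2 values of 2 libraries. The miR-465-3p rows share 1 panel, and in the miR-470-3p panel the circles at 10 ng lie under the squares at 0. Before oxidation miR-470-5p stood at 4404 to 7830 RPM, and after it no member exceeded 6.76 RPM.

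After oxidation few or no reads of the members were left. For miR-470-5p, the unoxidized libraries held 7788 and 7830 RPM (10 ng), 5123 and 5252 RPM (50 ng) and 4404 and 4762 RPM (100 ng). The oxidized ones held 3.24 and 6.76 RPM at 10 ng (7 and 13 reads), 3.14 and 0.890 at 50 ng (9 and 2 reads) and 6.57 and 4.11 at 100 ng (22 and 13 reads). Every library before oxidation lay above every library after it. The log2 fold change was -10.26 ± 0.24 (SE), with an adjusted p of 5.62e-11 by limma-trend on log2(RPM + 1) averaged over inputs and adjusted by the Benjamini-Hochberg method over the 141 miRNAs tested. This was the only member with reads in all 6 oxidized libraries.

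The miR-465 arms were left with 0 to 7 reads per oxidized library. At 50 ng, 6 and 7 reads of the shared miR-465-3p sequence remained, 2 in the first replicate at 100 ng and 0 in the other 3 oxidized libraries. Over the 6 oxidized libraries miR-465a-5p kept 4 reads, miR-465b-5p 2 and miR-465c-5p 9, and 5 of the 9 of miR-465c-5p lay in the first replicate at 100 ng. On the log2(RPM + 1) scale the fold change was -8.24 ± 0.19 for miR-465a-5p, -7.99 ± 0.13 for miR-465b-5p, -7.84 ± 0.23 for miR-465c-5p and -7.25 ± 0.10 for each miR-465-3p row (SE). As ratios of pooled RPM, the fall of miR-465a-5p was 1477-fold (95% interval 577 to 5422), that of miR-465b-5p 2286-fold (633 to 18882) and that of miR-465c-5p 580-fold (305 to 1269). For the miR-465-3p reads together it was 611-fold (370 to 1092). These intervals overlap one another, so counts this low do not order the arms by their loss.

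Neither arm of miR-471 left a read after oxidation. Its 5p arm went from 18.6 and 17.1 RPM (10 ng), 34.5 and 29.9 RPM (50 ng) and 39.5 and 41.5 RPM (100 ng) to 0 in all 6 oxidized libraries. Against a floor of 3 reads over these 6 libraries it was at least 158-fold lower (log2 fold change -4.89 ± 0.06, adjusted p = 2.54e-12 by limma). The 6 oxidized values, all 0, have no spread, so this SE and this p are too small to measure the error of the fall. By the same floor miR-471-3p, with 60 reads before oxidation, was at least 17.5-fold lower and miR-470-3p, with 16 reads, at least 4.59-fold lower. Exact 95% intervals, with the error split between both ends, set a stricter limit than this floor. They also count the error of the reads before oxidation. Their lower ends were 129.6-fold for miR-471-5p, 13.98-fold for miR-471-3p and 3.42-fold for miR-470-3p. For the last one the levels before oxidation were 0 and 0, 0.776 and 0.597, and 2.36 and 1.52 RPM at the rising inputs.

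Of the 10 members, 8 passed the filter of a mean of at least 5 RPM and 8 of 8 were called lower in RPM averaged over inputs (adjusted p below 0.05 by limma), beside 97.2% of all 141 tested miRNAs. At 10, 50 and 100 ng in turn 8 of 8 were also called lower, beside 96.5%, 95.7% and 95.0% of all tested. The members' share is thus near the background. All 8 passed the filter through the unoxidized libraries, since after oxidation none had a group mean above 5.34 RPM. Neither their count nor their p-values are therefore support for a fall. Their median log2 fold change was -7.55, against -6.02 over all tested, and the size of a fall on this scale is bounded by the level before oxidation. Members not tested were miR-470-3p and miR-471-3p. The fall of miR-471-5p turned to a log2 fold change of 1.32 after centring on library medians and of 1.12 by DESeq2, and that of miR-465c-5p to 0.20 by DESeq2. Both procedures remove a loss that most miRNAs share, and the median of all tested then became 0.19 and 0.73. By edgeR with TMM and by DESeq2, 1 of 8 members, miR-470-5p, was called lower, beside 13 of all 141 by edgeR with TMM and 8 of 141 by DESeq2. At 50 ng alone DESeq2 called no member lower and the 3 miR-465-3p rows higher. The share of all tested that DESeq2 called at 50 ng was not counted.

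What remained after oxidation was small at every input. The RPM of the 10 members after it amounted to 0.0824% (95% interval 0.0667 to 0.101) of those before it, compared with 0.0887% (0.0814 to 0.0965) for the other arms of the X-linked cluster. Over all miRNA rows the share was 0.228% (0.222 to 0.235). Shares here are in RPM. Scaled to the methylated spike-ins, the log2 fold change of miR-470-5p on oxidation averaged over inputs was -12.73, against -10.26 in RPM, so less remained by that scaling. By input, miR-470-5p retained 0.0627% of its RPM (0.0383 to 0.0968) at 10 ng, 0.0414% (0.0207 to 0.0741) at 50 ng and 0.117% (0.0815 to 0.163) at 100 ng. Counts in the replicates, such as 9 and 2 reads at 50 ng, spread widely beside these values. The interaction of oxidation with input (10 against 100 ng) was not called for miR-470-5p in RPM (log2 -0.89 ± 0.58, adjusted p = 0.23 by limma). It was called against the methylated spike-ins (-1.79, adjusted p = 0.00841 by limma), against all spike-ins (-2.07, adjusted p = 0.00506 by limma) and by DESeq2 (-1.18, adjusted p = 0.0284). With a pseudocount of 10 it was also called (-0.81, adjusted p = 0.00443 by limma). That pseudocount exceeds every oxidized value of miR-470-5p. The -0.81 is thus close to its difference before oxidation at this setting (0.77) with the sign turned.

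Among the unoxidized libraries the miR-465-3p rows were higher and miR-471-5p was lower at 10 than at 100 ng, and the values of miR-470-5p were highest at 10 ng. Each miR-465-3p row was at 264 and 239 RPM (10 ng), 193 and 177 RPM (50 ng) and 152 and 155 RPM (100 ng), so that the 3 inputs did not overlap. The level at 10 ng was 1.64-fold that at 100 ng (log2 fold change 0.71 ± 0.17, adjusted p = 0.00761 by limma). Conversely miR-471-5p was 2.27-fold higher at 100 than at 10 ng (log2 fold change at 10 against 100 ng -1.14 ± 0.11, adjusted p = 9.34e-05 by limma), also without overlap. For miR-470-5p the values given above were 1.70-fold higher at 10 than at 100 ng, with no overlap among the inputs.

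That difference of miR-470-5p was not called in the fit with 1 spread for all 12 libraries (log2 0.77 ± 0.41, adjusted p = 0.133 by limma), a spread that includes the oxidized libraries with 2 to 22 reads of it. With only the 4 libraries compared it was called (SE 0.06, adjusted p = 3.02e-27 by limma). A p this small from 4 libraries rests on a spread that limma pooled over the tested miRNAs, as if they were replicates. It does not measure the spread of this miRNA alone. For miR-471-5p, at 0 in all oxidized libraries, the SE of 0.11 became 0.32 in this smaller fit, and the adjusted p 0.000932 by limma. The smaller fit called 4 members higher, beside 21.3% of all tested, and 2 lower, beside 51.1%, and 72.3% of all tested in either direction. The 4 are miR-470-5p and the miR-465-3p rows, which hold 1 value profile, and the 2 are miR-465b-5p and miR-471-5p.

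The 5p arms of miR-465 were not called between 10 and 100 ng in RPM, and their calls depended on the scaling. Levels of miR-465b-5p were 202 and 226 RPM (10 ng), 339 and 335 RPM (50 ng) and 337 and 298 RPM (100 ng). Both libraries at 10 ng were below the other 4 (log2 fold change at 10 against 100 ng -0.57 ± 0.23, adjusted p = 0.0631 by limma, and 1.95e-07 with only the 4 libraries compared). The smaller p rests on the pooled spread of that fit, as for miR-470-5p above. The log2 fold change of miR-465b-5p turned to 0.01 when scaled to all spike-in reads. Levels of miR-465a-5p were 321 and 403, 408 and 424, and 360 and 341 RPM at 10, 50 and 100 ng, and those of miR-465c-5p 374 and 333, 366 and 316, and 321 and 297 RPM. Replicates at 10 and 100 ng overlapped in miR-465a-5p (log2 0.04 ± 0.32, adjusted p = 0.927 by limma) but not in miR-465c-5p (log2 0.19 ± 0.40, adjusted p = 0.699 by limma). Over 7 scalings or count models, RPM included, miR-465c-5p was higher at 10 ng (0.19 to 0.77) and called in 4, and miR-465a-5p was higher (0.04 to 0.61) and called in 3. Over the same 7, miR-465b-5p went from -0.57 to 0.01 and was called, as lower, in 1.

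**Figure D2:**
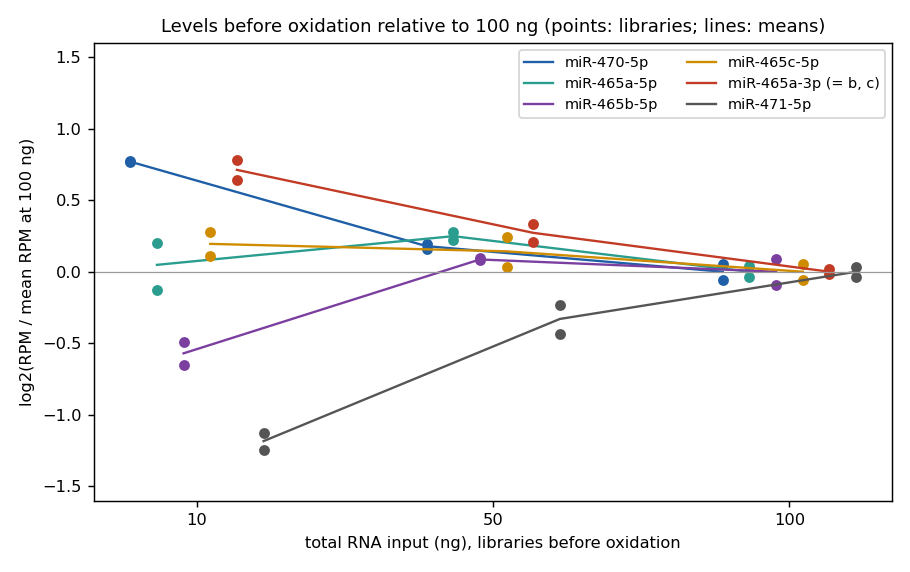
Level of the 6 tested value profiles before oxidation, as the log2 ratio of RPM to the mean RPM at 100 ng (y axis), by total RNA input in ng (x axis). Points are libraries and lines join the group means. At 10 ng miR-470-5p and the miR-465-3p rows lie above their 100 ng levels, at 1.70-fold and 1.64-fold, while miR-465b-5p and miR-471-5p lie below theirs.

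Counted over the 8 tested rows, 3 were called higher at 10 than at 100 ng before oxidation, beside 19.1% of all tested miRNAs, and 1 was called lower, beside 34.8%. The 3 higher rows are the miR-465-3p rows and so 1 value profile, the lower one is miR-471-5p, and 4 rows were not called. In either direction 53.9% of all tested were called. The members' median log2 fold change was 0.45 (0.12 with the shared rows taken once), against -0.49 over all 141. Under 7 scalings or count models, RPM included, the miR-465-3p rows stayed higher (0.71 to 1.28) and were called in all 7. By the same 7, miR-470-5p was higher (0.77 to 1.35) and called in 6, and miR-471-5p lower (-1.18 to -0.60) and called in 6, with DESeq2 the exception (adjusted p = 0.707). With a pseudocount of 0.1 the miR-465-3p rows lost their call (adjusted p = 0.397 by limma). RPM itself shifts with the scaling: over all tested miRNAs, 27 were higher and 49 lower in RPM, but 40 and 39 against the methylated spike-ins, 47 and 24 against all spike-ins, 37 and 23 after centring. By edgeR with TMM they were 42 and 33, and DESeq2 gave 36 and 30. The median of all tested moved from -0.49 to -0.17, 0.08, -0.11, -0.13 and -0.14 in that order.

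At 50 against 100 ng, 0 of 8 members were called by limma (1 at an unadjusted p below 0.05), beside 0.00% of all tested. Neither fit by edgeR called a member, and DESeq2 called 4 as higher at 50 ng. The share of all tested was not counted for that DESeq2 fit, so the 4 cannot be read as particular to the members. With only the 4 libraries compared, limma called 2, beside 29.8% of all tested: miR-470-5p (log2 0.18 ± 0.05, adjusted p = 0.0137) and miR-465a-5p (log2 0.25 ± 0.07, adjusted p = 0.0252). With all 6 unoxidized libraries these 2 were also called, beside 29.1%.

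**Figure D3:**
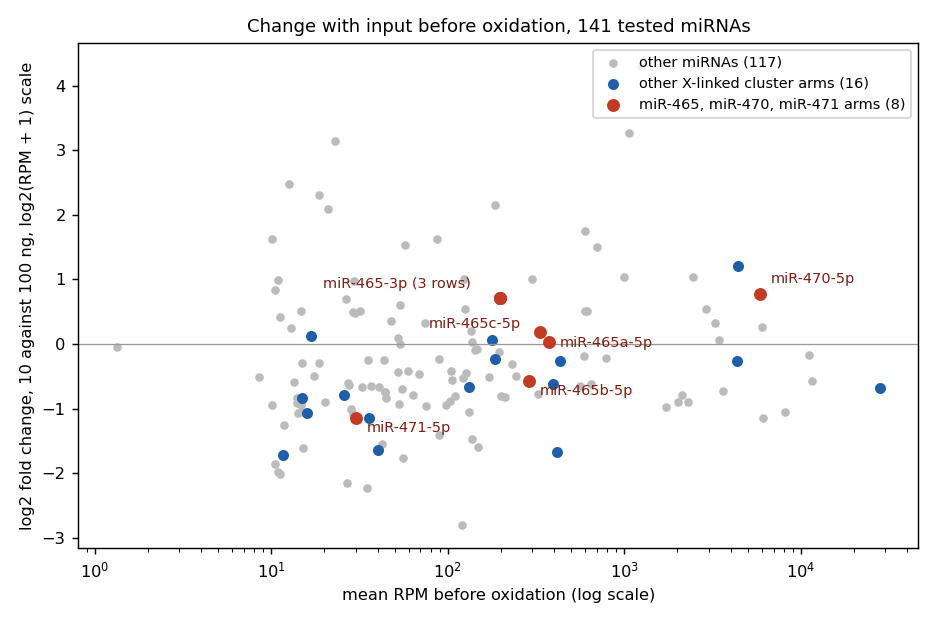
Log2 fold change at 10 against 100 ng before oxidation on the log2(RPM + 1) scale (y axis) against the mean RPM before oxidation (x axis, log scale), 1 point per tested miRNA. Red points are the 8 tested members, with the 3 miR-465-3p rows on top of each other, blue points 16 other arms of the X-linked cluster and grey points the remaining miRNAs. The members lie between -1.14 and 0.77, within the range of all tested miRNAs, -2.80 to 4.31.

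Within a library the balance of the miR-465 arms moved with the input, a comparison that no scaling of the library can alter. At 10 ng the 3p arm held 46.9% of miR-465 reads in one library (45.4 to 48.3, exact binomial 95% bounds) and 42.7% in the other (41.3 to 44.2). Its share was 34.3% (32.8 to 35.7) and 33.1% (31.9 to 34.4) at 50 ng, and 30.9% (29.5 to 32.3) and 33.3% (31.9 to 34.6) at 100 ng. Both libraries at 10 ng stood above the 4 others, and 50 and 100 ng overlapped.

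The ratio of each 5p arm to the shared miR-465-3p value was higher at more input. The 3 ratios have the same denominator, which was lower at 100 than at 10 ng, and so are not independent results. The ratio of miR-465b-5p to a miR-465-3p row was 0.766 and 0.945 (10 ng), 1.75 and 1.89 (50 ng) and 2.22 and 1.92 (100 ng). The log2 ratio rose by 0.40 per doubling of the input (2-sided exact permutation of the inputs over the 6 libraries, p = 0.0111, adjusted p = 0.0185 over the 5 pairs run). For miR-465c-5p the ratio was 1.42 and 1.39, then 1.90 and 1.78, then 2.12 and 1.91, a slope of 0.16 with the same exact permutation p and adjusted p. For miR-465a-5p it was 1.22 and 1.69, then 2.11 and 2.39, then 2.37 and 2.19, a slope of 0.22 (exact permutation p = 0.0333, adjusted p = 0.0417). A value of 0.0111 is the smallest that the 90 arrangements of the inputs can give. With the slope on the rank of the input, the adjusted p of the miR-465a pair was 0.0833. With 1 library left out, 30 arrangements remain, with 0.0333 as the smallest p. The slopes then kept their sign (0.34 to 0.44, 0.15 to 0.17 and 0.13 to 0.28 for miR-465b-5p, miR-465c-5p and miR-465a-5p), and their adjusted p was 0.0556 or more by the exact permutation, except without the second replicate at 50 ng.

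The balance among the 5p copies moved too. The ratio of miR-465a-5p to miR-465b-5p was 1.59 and 1.79 (10 ng), 1.20 and 1.27 (50 ng) and 1.07 and 1.14 (100 ng), a slope of -0.18 per doubling (exact permutation p = 0.0111, adjusted p = 0.0185). With 1 library left out its slope was -0.21 to -0.16 and its exact permutation p 0.0333, the smallest possible, each time. That p became an adjusted 0.0556, or 0.0417 without the second replicate at 50 ng. That of miR-465a-5p to miR-465c-5p was 0.857 and 1.21, 1.11 and 1.34, and 1.12 and 1.15, with no slope beyond the spread (0.06, exact permutation p = 0.444). The copies b and c, which differ by U13C alone, had a ratio of 0.539 and 0.679 (10 ng), 0.925 and 1.06 (50 ng) and 1.05 and 1.003 (100 ng). This last pair was chosen after its values were seen and was not tested. The planned pairs of miR-470 and miR-471 arms were not run, as their 3p arms were below 5 RPM.

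**Figure D4:**
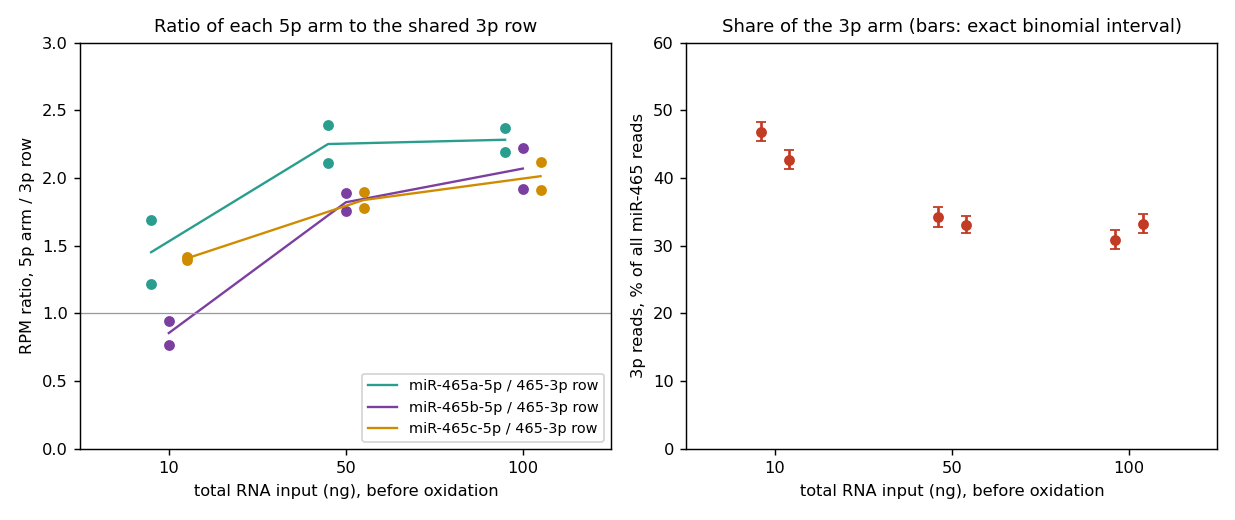
Balance of the miR-465 arms in the 6 libraries before oxidation, by total RNA input in ng (x axes). On the left, the RPM ratio of each 5p arm to a miR-465-3p row, with points for libraries, lines through group means and a grey line at a ratio of 1. On the right, the 3p share of all miR-465 reads in percent, with exact binomial 95% intervals. The 3p share is 42.7% and 46.9% at 10 ng and between 30.9% and 34.3% in the other 4 libraries.

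Of all reads of the X-linked cluster, the members' share was 22.6% and 22.0% (10 ng), 14.7% and 14.8% (50 ng) and 11.9% and 12.5% (100 ng). The members and the other arms moved in opposite directions. The mean of miR-470-5p was 7809 RPM at 10 ng and 4583 RPM at 100 ng, within member sums of 9514 and 6065 RPM. The other arms of the cluster summed to 33119 RPM at 10 ng and 43598 RPM at 100 ng. The summed miR-465 5p arms were at 929 and 976 RPM and miR-471-5p at 17.8 and 40.5 RPM at these inputs. The list of 30 other arms, used for all cluster values here, was made by name. It also holds arms, some of them tested, from outside the group of 19 hairpins described above. Of the 30 arms, 24 had reads and 16 were tested. On oxidation 16 of 16 were called lower, with a median log2 fold change of -7.21. At 10 against 100 ng before oxidation 1 of the 16 was called higher, 8 were called lower and 7 were not called, with a median of -0.67. The called rise was that of miR-871-3p, from 2980 RPM at 100 ng to 6871 RPM at 10 ng (log2 fold change 1.21 ± 0.26, adjusted p = 0.00566 by limma). The highest arm, miR-741-3p, was at 33886 RPM at 100 ng and 21119 RPM at 10 ng (adjusted p = 0.0566 by limma). The rows of miR-465d were at 0 reads in all 12 libraries.

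The profile of miR-470-5p over the 6 unoxidized libraries was most like that of miR-92a-3p (Pearson r of log2 values 0.998), miR-871-3p (0.996) and miR-30d-5p (0.992) among 131 miRNAs of at least 10 RPM. These r values describe 6 libraries that fall at 3 inputs and carry no p. At 10, 50 and 100 ng miR-92a-3p, a member of the miR-17-92 cluster, was at 1450, 834 and 707 RPM, and miR-30d-5p at 1037, 462 and 307 RPM.

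Levels of marker miRNAs also differed between inputs. The groups differ by label in the amount of total RNA and in oxidation, and no label gives a difference in cells between them. Bulk RNA cannot tell fewer cells of a type from less RNA per cell, and the part of the markers in the results above was not tested. From 10 to 100 ng the summed germ cell list, 3 of whose 6 miRNAs belong to the X-linked cluster, went from 29106 and 30157 RPM to 39616 and 39669 RPM. Over the same inputs the Sertoli list (miR-202-5p and miR-202-3p) went from 105 and 110 to 187 and 200.0 RPM, and the smooth muscle list (miR-143-3p and miR-145a-5p) from 8940 and 9180 to 13430 and 13625 RPM. The epithelial list (miR-200a-3p, miR-200b-3p and miR-375-3p) went from 233 and 264 to 181 and 197 RPM. Members of a list did not move together: between the means at 10 and 100 ng, miR-375-3p went from 145 to 46.0 RPM but miR-200a-3p from 83.2 to 111 and miR-200b-3p from 20.9 to 31.8 RPM. Likewise miR-202-5p went from 66.0 to 185 RPM and miR-202-3p from 41.3 to 8.80 RPM. In the germ cell list miR-741-3p had the largest rise in RPM. Also higher at 100 ng were miR-34c-5p (1125 to 2204 RPM), miR-449a-5p (8.09 to 38.5 RPM) and miR-880-3p (358 to 431 RPM). By contrast miR-34b-3p went from 150 to 103 RPM and miR-871-3p, as given above, was lower at 100 ng. Levels of the liver marker miR-122-5p were 1.82 to 6.07 RPM at 10 ng and 0.305 to 0.674 RPM at 100 ng.

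After oxidation no member was called between 10 and 100 ng, with 0 of 8 by limma, beside 1.42% of all tested, and 0 with an unadjusted p below 0.05. Neither edgeR fit nor DESeq2 called one. At 2 to 22 reads of miR-470-5p per library and at most 7 of any other member, only large differences were detectable at this depth. The interaction of oxidation with input (10 against 100 ng) was called for 4 of 8 rows, miR-471-5p and the miR-465-3p rows, beside 36.9% of all tested. With the shared rows taken once it was called for 2 of 6. For miR-471-5p, without a read in any oxidized library, it only repeats the difference between inputs before oxidation. The call of the miR-465-3p rows was lost without the first replicate at 10 ng or either replicate at 100 ng before oxidation, and by edgeR, which also did not call miR-471-5p. For the others it was not called in RPM, at 0.05 ± 0.46 for miR-465a-5p, 0.68 ± 0.32 for miR-465b-5p and -0.54 ± 0.56 for miR-465c-5p (log2, SE), and the sign for miR-465a-5p and miR-465b-5p turned under some scalings (-0.62 and -0.02 with all spike-ins). Against all spike-ins miR-465c-5p was called (-1.12, adjusted p = 0.00956 by limma).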

How the data were processed

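Values for miRNAs and piRNAs were deposited as RPM, computed by the authors per library; the sources used here do not give the denominator. The spike-in table holds raw read counts as deposited. Per the submitters' processing notes the tool was Bowtie (no version given) and 2 builds are listed, mm10 and hg38, with no role for either. The RPM denominator was recovered from the value of 1 read in the piRNA table (all piRNA values whole within 0.01 of a read, 93.2% to 100% of miRNA values whole). All sample columns were used (0 left over).

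The 12 libraries were fitted as 6 group means with limma-trend (limma 3.58.1, R 4.3.3) on log2(RPM + 1), over the 141 miRNAs with a mean of at least 5 RPM, with Benjamini-Hochberg adjustment and a threshold of 0.05. Fold changes on this scale understate those of low miRNAs. Ratios between arms were tested by exact permutation (numpy 2.4.6). Alternatives were other pseudocounts, filters and scalings, edgeR 4.0.16 and DESeq2 1.42.0 on recovered reads rounded to whole numbers, a replicate block, fits on fewer libraries and leaving out each library. The limma fit was tested on simulated data that held rises only, so it was not tested on a near-complete loss. The members and lists were chosen with earlier results of these data known. Named miRNAs were the 10 members, the 2 highest other arms of the X-linked cluster, the 3 most like miR-470-5p before oxidation and the cell type markers. Replicates of each group differed by more than sampling noise (chi-square over miRNAs, p of 7.49e-12 or less in all 6 groups).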

Additional observations from a re-analysis of the deposited data

Results flagged for a closer look

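The interaction of oxidation with input (10 against 100 ng) was called for miR-471-5p, at a log2 difference of 1.14 ± 0.16 (SE, adjusted p = 0.00117 by limma). Since miR-471-5p had 0 reads in all 6 oxidized libraries, this value is the size of its difference between inputs before oxidation. It cannot show whether oxidation acted differently at these inputs, and values of 0 without spread make its SE too small. The interaction was also called for miR-465a-3p, miR-465b-3p and miR-465c-3p, which share their reads, at -0.84 ± 0.23 each (adjusted p = 0.0251 by limma). Their difference between 10 and 100 ng was 0.71 before oxidation and -0.13 after it, with 0 reads at 10 ng and 2 at 100 ng. Neither edgeR fit called either interaction, and the adjusted p of miR-471-5p was 0.9997 in both.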

How the results depend on the processing

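The count of 8 members called lower on oxidation averaged over inputs fell to 1 by edgeR with TMM and to 1 by DESeq2. At 10 ng it was 1 by each, at 50 ng 1 and 0 (1 without an adjusted p by DESeq2, and the 3 miR-465-3p rows called higher), with 4 after centring, and at 100 ng 0 and 0. Centring and the DESeq2 size factors remove a loss shared by most miRNAs. By edgeR the median log2 fold change of all tested on oxidation was -4.16 with TMM and -9.36 without it. For miR-470-5p, with reads in every oxidized library, it was -1.21 with TMM and -10.52 without it, so TMM removed most of its loss. For miR-471-5p, without a read in any of them, it was -8.42 and -9.31. Of the direction changes, miR-471-5p had a log2 fold change on oxidation of 1.32 after centring and 1.12 by DESeq2, and miR-465c-5p one of 0.20 by DESeq2. At 10 against 100 ng before oxidation miR-465b-5p had 0.0056 with all spike-ins, and miR-465a-5p ranged from -0.13 to 0.20 when 1 library was left out, turning negative without the second replicate before oxidation at 10 ng or at 100 ng. The 4 rows called there became 2 with the shared rows taken once, 1 with a pseudocount of 0.1, 7 with all spike-ins and 7 by edgeR with TMM. At 50 against 100 ng the count of 0 became 4 with a pseudocount of 10, 3 with all spike-ins, 4 by DESeq2, 2 with only the groups compared and 2 with only the 6 unoxidized libraries, a fit chosen after seeing the data. The 4 interaction calls became 2 with the shared rows taken once, 1 with a pseudocount of 0.1, 0 and 0 by edgeR with and without TMM, 1 by DESeq2 (which gave 7 of the 8 no adjusted p) and 1 to 5 when 1 library was left out. The 3 miR-465-3p calls were lost without the first replicate before oxidation at 10 ng (adjusted p = 0.0505 by limma), or without the first (0.0604) or second (0.0549) at 100 ng. The uncalled interaction of miR-465a-5p (0.05) turned to -0.027 with a pseudocount of 10, -0.37 and -0.62 with methylated and all spike-ins and -0.33 after centring, and ranged from -0.23 to 0.32 when 1 library was left out. That of miR-465b-5p turned to -0.017 with all spike-ins. Leaving out 1 library changed no oxidation count. Except where given, the share of all tested miRNAs called was not counted under these alternatives. Their counts therefore cannot be read as particular to the members.

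For the ratios, 5 libraries allow only 30 arrangements and no p below 0.0333. Slopes per doubling then ranged from 0.13 to 0.28 for miR-465a-5p to 3p, 0.34 to 0.44 for miR-465b-5p, 0.15 to 0.17 for miR-465c-5p, -0.21 to -0.16 for miR-465a-5p to miR-465b-5p and -0.028 to 0.13 for miR-465a-5p to miR-465c-5p, which turned negative without the first replicate at 10 ng. Calls then held only without the second replicate at 50 ng. The slope of miR-465a-5p to 3p on input rank was 0.34, no longer called. Except where a reason is given, the cause of these changes was not tested. With the replicate block the counts of calls were unchanged, at 8 for oxidation and 4 for input before oxidation. Replicate numbers did not pair the libraries: 2 of 15 correlations of same-numbered deviations exceeded 0.1 (-0.20 to 0.18). Fewer than 25 reads of any member per oxidized library limit what can be compared there.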

Other observations

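The deposited piRNA table was searched for fragments of the precursors. Of its 1018402 sequences, 0 lay within one of the 8 hairpins of miR-465 (miR-465d included), miR-470 and miR-471, and 0 contained a mature sequence of these miRNAs. Of all miRNA reads, the 10 members made up 7.96% to 8.14% at 10 ng, 5.25% to 5.38% at 50 ng and 4.37% to 4.49% at 100 ng before oxidation. After it they made up 1.26% to 3.52% of the 625 to 937 remaining miRNA reads.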
